A study of Mus musculus with 15 samples.

Results

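The transcripts described here belong to 9 genes that BMP signaling is known to switch on in many cells: the inhibitors of DNA binding Id1, Id2, Id3 and Id4, the SMAD genes Smad6, Smad7 and Smad9, the pseudoreceptor gene Bambi and the transcription factor gene Atoh8. They are 9 of the 20207 RefSeq genes in the deposited tables, and all 9 had at least 1 count in every sample and so entered the fit with 10276 genes. The genes were chosen by name, as BMP target genes, at a point when results of these data were known, including the fall of Id2 at 135 min. All 9 are annotated as protein-coding, and gene positions below are those of the mm9 assembly. Their levels and differences are therefore given as a description, with no p-value, and the share of all tested genes that passed the same criterion stands beside the first count in each comparison.

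Bone morphogenetic proteins (BMPs) bind pairs of type I and type II receptor kinases, which phosphorylate SMAD1, SMAD5 and SMAD9. These join SMAD4 and enter the nucleus, where Id genes and genes for feedback inhibitors of the pathway are among their direct targets. ID proteins have a helix-loop-helix without a DNA-binding region and keep E proteins, the common partners of tissue-specific helix-loop-helix factors, away from DNA. FKBP12, the protein from which the destabilizing domain (DD) used here was derived, is known to bind type I receptors of this family and to keep them inactive without ligand.

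Poly(A) RNA was sequenced from 15 samples of NIH3T3, a line of mouse embryonic fibroblasts, which carried a stable DD-sfGFP transgene, superfolder GFP fused to the FKBP-derived L106P DD. The DD is folded while the ligand Shield-1 (S1) is bound and unfolds once S1 is withdrawn. There were 5 control samples, in which the same cells kept S1, and 3, 3 and 4 samples taken 45, 135 and 405 min after withdrawal. When the controls were taken is not given in the sources used here, so no control is known to match a time point. According to the study's methods the cells were a population sorted for high GFP after transposon integration, and S1 was withdrawn by adding purified FKBP(F36V) protein to the medium. The added FKBP(F36V) and the unfolded DD went together in every withdrawn sample and cannot be told apart here, and cells with GFP alone, heat shock or tunicamycin were not analysed here. For cells with GFP alone, from which S1 was withdrawn in the same way, the paper reports no significant change in the transcripts it measured by RT-qPCR. Its text names none of the genes described here among them. The paper also describes mRNA-seq of GFP-only cells at the same times, and its text gives no values of these genes from it. No source used here says that replicates were separate cultures, so their spread may be technical.

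Totals ranged from 6652539 counts in control replicate 3 to 30258404 counts in replicate 1 at 45 min. The 8 fibroblast markers examined lay at 56.1 CPM or more in every sample, whereas the median of each epithelial, endothelial and muscle marker was at most 0.328 CPM and Cd68, the most abundant leukocyte marker, had a median of 1.77 CPM. CPM are counts scaled to the size of the library, here with TMM factors. The samples fell into 2 library sets that differ in how the level of a gene depends on the GC content of its exons. Set 2 held control replicate 2, replicate 3 at 45 min and replicates 1, 2 and 4 at 405 min, and set 1 held the other 10 samples, among them all 3 samples at 135 min. Library set and time thus overlapped in part. Set 1 held 1 of the 405-min samples and set 2 held 1 control and 1 of the 45-min samples, so values within a set often rest on an arm of 1 sample, which is assumed to vary like the other groups. In these bulk samples fewer cells that express a gene and less RNA per cell cannot be told apart.

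Most of the 9 genes had lower levels after S1 withdrawal. The log2 fold change against control was negative for 8 of 9 genes at 45 min and for 9 of 9 genes at both 135 and 405 min. The median of the 9 genes was -0.67 at 45 min, -1.14 at 135 min and -0.94 at 405 min, whereas the median of all tested genes was 0.02, -0.06 and 0.0. At 45 min 0 of the 9 genes passed an adjusted p-value of 0.05 in the edgeR quasi-likelihood fit, and neither did any other gene (0.0% of 10276 genes). In that comparison 365 genes had an unadjusted p-value under 0.05, and DESeq2 called 2 genes higher and 4 lower, of which Id2 and Id3 were 2. At 135 min 4 of the 9 (Id2, Id3, Smad6 and Smad7) passed the threshold as lower, against 0.895% of all tested genes, and at 405 min 8 of the 9 (all but Atoh8) did, against 13.4%. The count at 135 min was 2 without replicate 1 of that time and in the fit of only the compared groups. Over all tested genes 22 and 24 passed as lower in those fits, against 92 in the main fit. The count at 405 min was 5 without replicate 2 or replicate 4 of that time and in the fit of only the compared groups. Over all tested genes 629, 528 and 463 passed as lower in those fits, against 1382 in the main fit. Within library set 1, with 4 controls and 3 samples at 135 min, the count at that time was again 4. Over all tested genes 361 passed as lower in that fit. At 405 min an arm held 1 sample within each library set, and fewer members passed there. Every sample lay below every control sample for 3 of the genes at 45 min (0.448% of tested genes), for 6 at 135 min (4.75%) and for 6 at 405 min (6.43%).

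**Figure D1:**
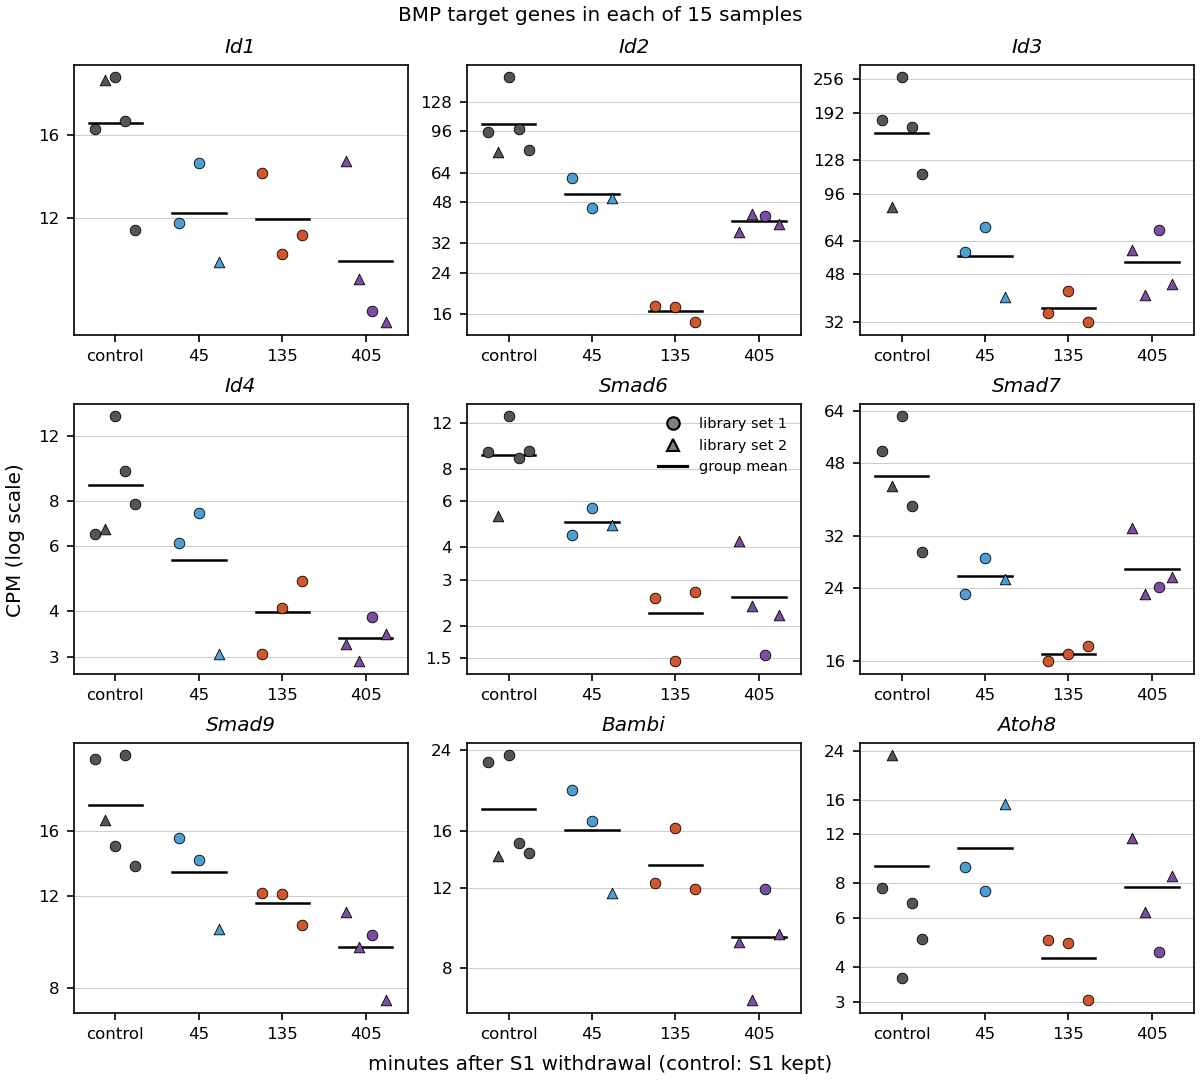
CPM (log scale, a separate range for each gene) of the 9 genes in each of the 15 samples, by minutes after S1 withdrawal. Circles are samples of library set 1, triangles samples of library set 2 and black lines group means. The Id2 samples at 135 min (14.8 to 17.4 CPM) lie below all samples of the other groups, and for Atoh8 the triangles of the control and 45-min groups lie above the circles.

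Id2, which encodes an ID protein, was the member with the lowest log2 fold change at 135 min. The gene lies at chr12:25778664-25780957 (mm9, minus strand). The 5 control samples had 95.2, 78.3, 162, 98.4 and 79.8 CPM. At 45 min the values were 60.6, 45.2 and 49.9 CPM, at 135 min 17.4, 17.2 and 14.8 CPM, and at 405 min 35.9, 42.7, 41.8 and 38.6 CPM. No sample of any time point reached the lowest control, the 135-min samples were the lowest of all 15, and the 405-min samples lay between them and the 45-min samples without overlap. Against control the log2 fold change was -0.98 (SE 0.22) at 45 min, -2.64 (SE 0.24) at 135 min and -1.37 (SE 0.20) at 405 min, so the mean of 103 CPM ± 34.4 (SD, n = 5) in control compared with 16.5 CPM ± 1.47 (SD, n = 3) at 135 min. Between 135 and 405 min Id2 was higher by 1.27 on the log2 scale (SE 0.23), and it was the only one of the 9 genes to pass the threshold in that comparison, in which 2.24% of all tested genes passed as higher and 2.82% as lower. That call was lost without any 1 of the 135-min samples, whereas its calls against control at 135 and 405 min held in all 15 fits that left out 1 sample.

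Id3, a second ID protein gene (chr4:135699737-135701307, plus strand), was the most abundant of the 9 per length, at 70.2 ± 15.2 RPKM (SD, n = 5) in control. RPKM, as the authors deposited them, scale reads by gene length and depth. Its control samples had 180.3, 85.5, 259.9, 170.5 and 114 CPM. The values were 58.0, 71.9 and 39.4 CPM at 45 min, 34.5, 41.7 and 31.8 CPM at 135 min and 59.2, 40.1, 70.1 and 44.2 CPM at 405 min. All 10 samples after withdrawal lay below the lowest control, which was the only control of library set 2. Fitted log2 fold changes were -1.52 (SE 0.33), -2.17 (SE 0.34) and -1.60 (SE 0.30) at the 3 times, and the change from 135 to 405 min was 0.57 (SE 0.33), with 1 of the 4 samples at 405 min inside the 135-min range. At 405 min the difference was smaller with the library set as a covariate, at -1.13 (SE 0.23), and within set 2 it was -0.85 (SE 0.23).

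Id1 and Id4 encode the remaining ID proteins. Id1 (chr2:152562010-152563146, plus strand) had 16.3, 19.3, 19.5, 16.8 and 11.5 CPM in control, 11.8, 14.5 and 10.3 CPM at 45 min, 14, 10.6 and 11.3 CPM at 135 min and 14.6, 9.73, 8.69 and 8.36 CPM at 405 min. Control replicate 5 fell inside the range of every later group, so no time point separated from control. For Id1 the differences from control on the log2 scale were -0.45 (SE 0.25), -0.48 (SE 0.25) and -0.69 (SE 0.23), and its call at 405 min was lost in 10 of the 15 fits that left out 1 sample. Id4 (chr13:48356796-48359405, plus strand) had 6.48, 6.71, 13.6, 9.65 and 7.83 CPM in control and 6.15, 7.39 and 3.04 CPM at 45 min. It had 3.05, 4.07 and 4.82 CPM at 135 min and 3.25, 2.91, 3.86 and 3.46 CPM at 405 min, all below the lowest control. Its log2 fold change was -0.67 (SE 0.33), -1.14 (SE 0.34) and -1.38 (SE 0.31). At 45 min the values within set 1 and set 2 were -0.29 (SE 0.28) and -0.91 (SE 0.40) for Id1 and -0.46 (SE 0.37) and -1.14 (SE 0.47) for Id4. A noncoding gene on the opposite strand, A330033J07Rik, overlaps Id4, and whether reads were counted by strand was not given in the sources used here, so the Id4 values are uncertain.

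The promoters are shown for the genes that were furthest below control at 135 min and had an entry in the RefSeq promoter table used (assembly GRCm38.p6, which differs from the mm9 assembly of the deposited tables), and for Id4. Each run is the 250 bases before the annotated start, read 5′ to 3′ on the strand of the gene, and the regions are chr12:25096093-25096342 (minus strand) for Id2, chr4:136143572-136143821 (plus strand) for Id3, chr9:64022060-64022309 (minus strand) for Smad6 and chr13:48260866-48261115 (plus strand) for Id4. Capitals mark GGCGCC, a GC-rich element that SMAD1 and SMAD5 are known to bind, which reads the same on both strands.
Id2: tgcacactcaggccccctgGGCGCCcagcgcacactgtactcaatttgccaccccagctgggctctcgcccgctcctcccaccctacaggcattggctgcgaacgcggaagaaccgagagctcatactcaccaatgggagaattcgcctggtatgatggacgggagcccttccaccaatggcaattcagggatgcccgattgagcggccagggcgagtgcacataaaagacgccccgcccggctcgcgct
Id3: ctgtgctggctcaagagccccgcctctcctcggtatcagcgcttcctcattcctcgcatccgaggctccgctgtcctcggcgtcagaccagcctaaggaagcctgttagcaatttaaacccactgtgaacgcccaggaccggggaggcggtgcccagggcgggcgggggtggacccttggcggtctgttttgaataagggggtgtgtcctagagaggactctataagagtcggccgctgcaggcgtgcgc
Smad6: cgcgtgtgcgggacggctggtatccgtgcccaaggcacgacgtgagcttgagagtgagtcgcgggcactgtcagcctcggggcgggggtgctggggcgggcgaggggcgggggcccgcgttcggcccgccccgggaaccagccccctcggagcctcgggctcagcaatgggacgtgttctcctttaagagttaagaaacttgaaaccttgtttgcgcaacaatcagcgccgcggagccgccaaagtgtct
Id4: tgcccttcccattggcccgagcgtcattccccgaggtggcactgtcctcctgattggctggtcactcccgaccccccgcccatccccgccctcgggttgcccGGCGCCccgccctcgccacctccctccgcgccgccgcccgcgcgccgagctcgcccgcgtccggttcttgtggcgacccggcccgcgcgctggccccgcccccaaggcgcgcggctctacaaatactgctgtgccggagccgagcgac
Of the 9 genes 6 had an entry, and 3 of those 6 held GGCGCC: Id2 at position -231, Id4 at -148 and Smad9 at -51, counted from the annotated start. Id3, Smad6 and Atoh8 held none in this window, and the element occurred in 9.59% of all 32851 promoters of the same length. The windows of the 6 genes had a GC content between 62.8% and 75.6%. The share of all promoters was not matched for GC content, so whether the element is more frequent in these genes was not tested. The short SMAD-binding letters GTCT, searched on both strands (AGAC on the other), occurred 2 times in Id3 and 1 time each in Id2, Smad6 and Smad9, and in 82.9% of all promoters. The 2 motifs cannot overlap. Such matches are a description of the letters in this window, not of bound sites.

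The inhibitory SMAD genes were lower as well. Smad6 (chr9:63800884-63869866, minus strand) encodes an inhibitor that acts mainly on BMP receptors and SMAD1. Its control samples had 9.25, 5.26, 12.7, 8.77 and 9.35 CPM, and at 45 min the values were 4.45, 5.68 and 4.89 CPM. They were 2.56, 1.46 and 2.70 CPM at 135 min and 4.22, 2.39, 1.55 and 2.20 CPM at 405 min, all below the lowest control, which belonged to library set 2. Smad6 differed from control on the log2 scale by -0.85 (SE 0.35), -2.0 (SE 0.38) and -1.79 (SE 0.34), and the change from 135 to 405 min was 0.21 (SE 0.37). Smad6 was the least abundant member per length, at 1.31 ± 0.32 RPKM (SD, n = 5) in control, and replicate 3 at 405 min held 16 counts of it, so the values at 135 and 405 min carry a large counting error. The call at 135 min was lost without any 1 of the 3 samples at that time, with log2 fold changes between -2.16 and -1.77 over all 15 fits that left out 1 sample. At 405 min the difference was -2.69 (SE 0.58) within library set 1, in which 1 sample of that time stood against 4 controls, and -0.87 (SE 0.41) within set 2. For 45 min set 1 gave -0.99 (SE 0.37) and set 2 gave -0.11 (SE 0.51), a difference between sets that was not tested.

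Smad7 (chr18:75527019-75555588, plus strand) encodes an inhibitor of both the BMP and the TGF-β branch. Its values were 51.5, 42.2, 62.2, 37.9 and 29.4 CPM in control, 23.3, 28.4 and 25.2 CPM at 45 min, 16.0, 16.7 and 17.4 CPM at 135 min and 33.5, 23.3, 24.2 and 25.6 CPM at 405 min. The 45-min and 135-min samples lay below all controls, the 135-min samples below those of every other group, and at 405 min replicate 1 was inside the control range. Its log2 fold change was -0.80 (SE 0.22), -1.42 (SE 0.23) and -0.74 (SE 0.20), and from 135 to 405 min it was 0.67 (SE 0.23) with 4 of 4 samples above the 135-min range. The call at 135 min was lost without replicate 1 of that time, and the call at 405 min without replicate 2 or replicate 4 of that time.

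Smad9 (chr3:54559504-54605179, plus strand) encodes a receptor-regulated SMAD of the BMP branch. It had 22.0, 16.8, 15, 22.3 and 13.7 CPM in control, 15.5, 14.1 and 10.4 CPM at 45 min, 12.2, 12.1 and 10.6 CPM at 135 min and 11.2, 9.59, 10.1 and 7.59 CPM at 405 min. All samples at 135 and 405 min lay below the lowest control, and the group mean was lowest at the last time. On the log2 scale the differences from control were -0.43 (SE 0.23), -0.63 (SE 0.23) and -0.90 (SE 0.21), and the call at 405 min held in all 15 fits that left out 1 sample.

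Bambi (chr18:3507955-3516402, plus strand), which encodes a receptor-like protein without a kinase domain, had 22.6, 14.1, 23.4, 15 and 14.3 CPM in control, 19.7, 16.8 and 11.7 CPM at 45 min, 12.3, 16.2 and 11.9 CPM at 135 min and 9.12, 6.78, 11.9 and 9.51 CPM at 405 min. The groups overlapped at 45 and 135 min, and all 4 samples at 405 min lay below the lowest control. Relative to control Bambi differed by -0.15 (SE 0.26), -0.40 (SE 0.26) and -0.94 (SE 0.25) on the log2 scale. The call at 405 min was lost without replicate 1, 2 or 4 of that time and also with the library set as a covariate, where the difference was -0.66 (SE 0.23).

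Atoh8 (chr6:72156172-72185571, minus strand), a helix-loop-helix transcription factor gene, was higher in every sample of library set 2 than in every sample of set 1 in each of the 3 groups that held both sets. Its control samples had 7.72, 23.1, 3.66, 6.80 and 5.05 CPM, and the value of 23.1 CPM was that of the only control of library set 2. It had 9.14, 7.50 and 15.5 CPM at 45 min, the last being the set 2 sample, then 5.0, 4.86 and 3.03 CPM at 135 min and 11.7, 6.30, 4.54 and 8.47 CPM at 405 min. Every group overlapped control. Pooled over both sets, the log2 fold change was 0.20 (SE 0.50), -1.13 (SE 0.53) and -0.27 (SE 0.47), and without control replicate 2 it was 0.87, -0.45 and 0.41. At 45 min the sign differed between the sets (not tested), with 0.51 (SE 0.38) within set 1 and -0.58 (SE 0.39) within set 2. At 405 min the difference was -0.38 (SE 0.52) within set 1, with 1 sample of that time, and -1.41 (SE 0.30) within set 2, with 1 control. The exons of Atoh8 had a GC content of 62.2%, the highest of the 9 genes, where the median of the tested genes was 49.1%, Id3 had 54.4% and Id2 had 42.4%. The part of the library set in these values was not tested further.

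**Figure D2:**
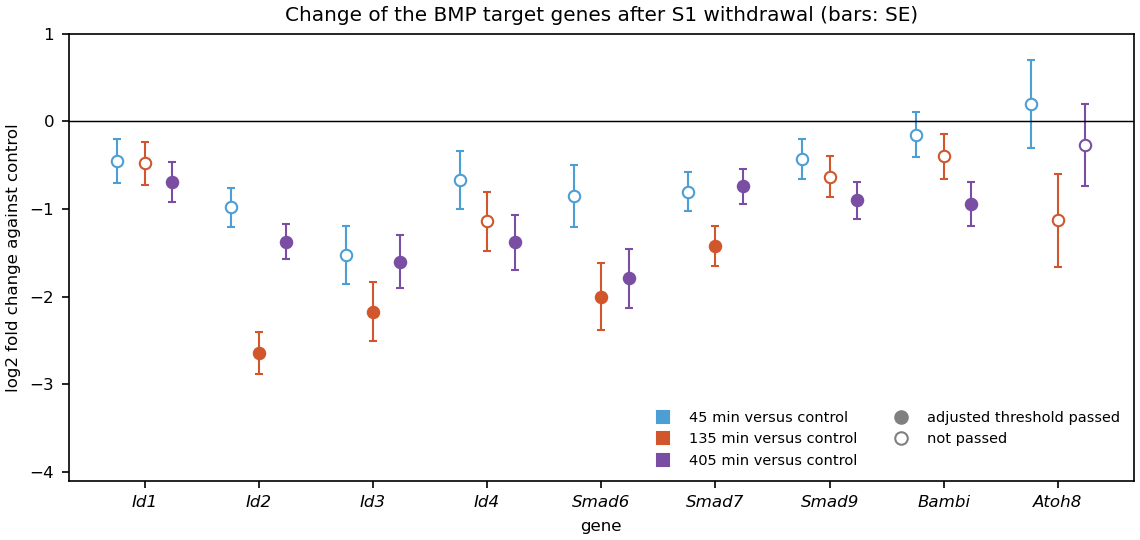
Log2 fold change against control of the 9 genes at 45, 135 and 405 min (edgeR, all 15 samples, error bars are SE). Filled points passed an adjusted p-value of 0.05 over 10276 genes. Id2, Id3, Smad6, Smad7 and Atoh8 were lowest at 135 min, and Id1, Id4, Smad9 and Bambi at 405 min.

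For Id2, Id3, Smad6, Smad7 and Atoh8 the log2 fold change was lowest at 135 min, and for Id1, Id4, Smad9 and Bambi it was lowest at 405 min. From 135 to 405 min Id2 and Smad7 were higher in 4 of 4 samples and Bambi was lower in 4 of 4, but of these differences only that of Id2 passed the threshold. The share of all tested genes that separated in this way between these times was not counted, so whether such separation is common is not known. The comparisons with control share the same 5 control samples, and control replicate 3, the shallowest library, had the highest control CPM of Id1, Id2, Id3, Id4, Smad6, Smad7 and Bambi. On the authors' RPKM scale the same sample was the lowest control for Id1 (5.269), Id2 (31.33), Smad7 (3.445) and Bambi (1.139). For Id3, Id4 and Smad6 it was neither the highest nor the lowest control on that scale. Per length, in the authors' RPKM, the order of the control means was Id3 (70.2), Id2 (33.9), Id1 (8.09), Smad7 (4.30), Id4 (2.26), Atoh8 (1.94), Bambi (1.53), Smad9 (1.52) and Smad6 (1.31). The control ranges of Id3 and Id2 did not overlap each other or those of the other genes, and neither did those of Smad7 and Id4, whereas every other neighbor pair in that order overlapped. At 135 min the RPKM of Id2 was 6.65 ± 0.63 and that of Id1 6.73 ± 0.953 (SD, n = 3), so that these levels lay within their spread of each other.

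Genes whose levels followed the same pattern over the 15 samples were sought among 8940 tested genes with a mean control level of at least 5 CPM. The measure was the root mean square difference between the log2 CPM of a gene and the mean of Id1, Id2 and Id3, each centered on its mean over the samples. It was 0.238 for Rdh14, a retinol dehydrogenase gene, 0.268 for Foxf2, a forkhead factor gene, and 0.294 for Bdnf, a neurotrophin gene. Adamts1 (0.32), Klf6 (0.321), Myc (0.326) and Ankrd1 (0.33) were also among the 8 closest genes, whereas the median gene had 0.773. Myc, a growth-promoting transcription factor gene, had mean levels of 168 CPM in control, 128 CPM at 45 min, 57.1 CPM at 135 min and 75.7 CPM at 405 min. Among the members outside the mean, Smad7 (0.257) lay between Rdh14 and Foxf2, Id4, Smad6 and Smad9 had 0.389, 0.463 and 0.47, and Bambi (0.545) and Atoh8 (0.943) lay furthest. Id3 (0.293), Id2 (0.376) and Id1 (0.493) are part of the mean, so their likeness to it is fixed in part. Rdh14 had 12.0 CPM in control and 4.61 CPM at 135 min. These values describe likeness over samples that share libraries and depths and carry no test.

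**Figure D3:**
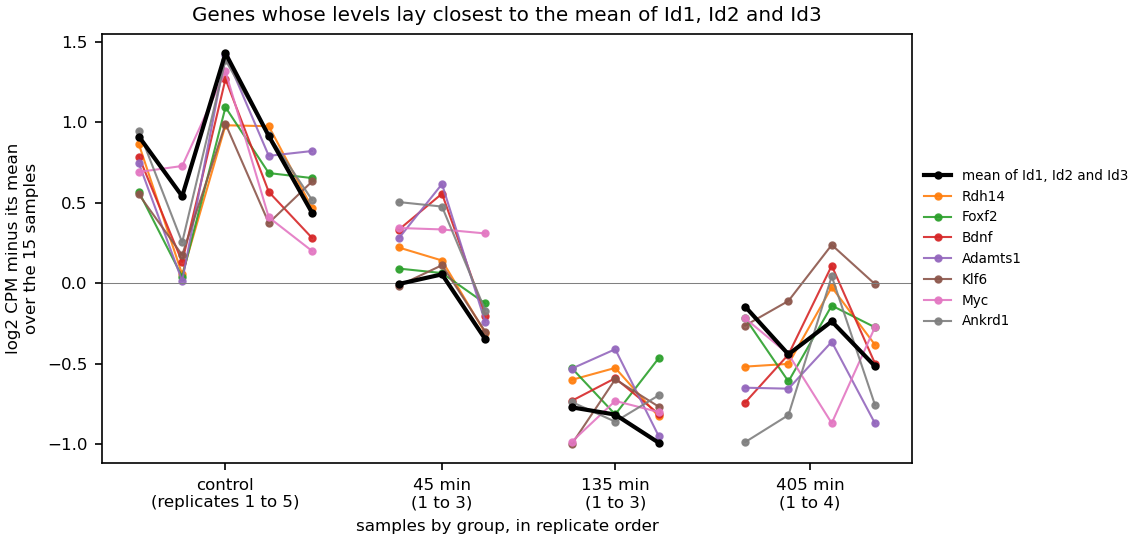
Log2 CPM minus its mean over the 15 samples, by group and in replicate order within a group, for the mean of Id1, Id2 and Id3 (black) and 7 of the 8 non-member genes closest to it. All 8 profiles are above 0 in the control samples and below 0 in the 135-min samples, and the highest control value is that of replicate 3.

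The rest of the pathway was read from 7 lists of 108 genes, the 9 members left out, of which 107 were in the tables and 66 were tested. Like the members, the lists were chosen with earlier results of these data known. Their counts beside the shares of all genes, and their adjusted p-values, are therefore a description and no independent test of the lists. None passed the threshold at 45 min, with 0 higher and 0 lower (edgeR, with DESeq2 calling 2 and 365 of all genes under an unadjusted p-value of 0.05). At 135 min 1 of the 66 genes rose and 6 fell, where 0.564% and 0.895% of all tested genes did so. At 405 min 2 rose and 22 fell, where 9.99% and 13.4% of all tested genes did so, and from 135 to 405 min 2 rose and 5 fell, where 2.24% and 2.82% did so. The median log2 fold change of the 66 genes was 0.0, -0.10 and -0.17 at the 3 times.

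The ligand genes of the pathway had few counts. Of 16 BMP and GDF ligand genes only Gdf11 was tested, and it did not pass at any time, with an adjusted p-value of at least 0.457 against control (edgeR). Bmp4, a ligand gene often expressed by fibroblasts, had at most 15 counts in any sample and 0 in 3 samples. Of the receptor and co-receptor genes 9 of 13 were tested. At 405 min 4 of the 9 fell and none rose, where 13.4% of all tested genes fell and 9.99% rose. The 4 were the type I receptor gene Bmpr1a (-0.54, SE 0.18, edgeR adjusted p = 0.0396), the type II receptor gene Bmpr2 (-0.39, SE 0.13, adjusted p = 0.0443), the activin type II receptor gene Acvr2a (-0.70, SE 0.22, adjusted p = 0.033) and the co-receptor gene Tgfbr3 (-0.39, SE 0.13, adjusted p = 0.0383). Acvr2a and Tgfbr3 were named after their values were seen. With the library set as a covariate Bmpr1a had an edgeR adjusted p-value of 0.226, Bmpr2 of 0.168 and Acvr2a of 0.188, whereas Tgfbr3 had 0.00538. Of the 15 fits that left out 1 sample the call was lost in 11 each for Bmpr1a and Bmpr2, in 7 for Acvr2a and in 10 for Tgfbr3, with adjusted p-values of at most 0.137. Bmpr2 was not lower at 135 min, where its mean was 128 CPM against 94.4 CPM in control (log2 fold change 0.44, SE 0.14, edgeR adjusted p = 0.174), and it fell by 0.83 on the log2 scale from 135 to 405 min (SE 0.15, adjusted p = 0.00946), a call that was lost without replicate 1 or replicate 2 at 135 min. The type I receptor gene Acvr1 had a log2 fold change of -0.09, -0.08 and -0.03 at the 3 times (SE 0.19, 0.19 and 0.18), with an edgeR adjusted p-value of at least 0.828.

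Smad1, Smad5 and Smad4, whose proteins carry the signal into the nucleus with that of Smad9, did not pass at any time. Smad1 had 44.6 CPM in control and 46.9 CPM at 135 min (log2 fold change 0.07, SE 0.19), Smad5 had 65.4 and 61.1 CPM (-0.10, SE 0.14) and Smad4, the shared partner, had 84.9 and 86.6 CPM (0.03, SE 0.15), with edgeR adjusted p-values of 0.931, 0.849 and 0.963. At 405 min Smad1 had 0.29 (SE 0.18, edgeR adjusted p = 0.219), with 4 of 4 samples above all controls. The margin was small, as the lowest of the 4 had 51.9 CPM and the highest control 51.3 CPM. The share of all tested genes that separated upward was not counted. At the same time Smad5 had -0.23 (SE 0.13, edgeR adjusted p = 0.194) and Smad4 -0.27 (SE 0.13, adjusted p = 0.142). Differences of the size of these SE were not detectable. Of the 11 tested SMAD genes and cofactors 1 fell at 135 min and 2 fell at 405 min, where 0.895% and 13.4% of all tested genes fell. Runx2, a factor of bone formation that works with SMADs, fell at 135 min (-0.94, SE 0.19, edgeR adjusted p = 0.0245). The corepressor genes Skil (-1.12, SE 0.27, edgeR adjusted p = 0.012) and Zeb2 (-0.63, SE 0.14, adjusted p = 0.00603) fell at 405 min.

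Among other transcription factors known to respond to BMP or related ligands, 11 of 19 were tested. At 135 min 4 of the 11 fell, where 0.895% of all tested genes did so. Klf10, a TGF-β-inducible zinc finger gene, had 67.5 CPM ± 6.23 (SD, n = 5) in control and 17.7 CPM ± 2.26 (SD, n = 3) at 135 min. This difference of -1.93 on the log2 scale (SE 0.15, edgeR adjusted p = 1.38e-05) came with 3 of 3 samples below all controls. Hes1, a helix-loop-helix repressor gene that is better known as a Notch target, had 13.1 CPM ± 3.42 (SD, n = 5) in control and 2.30 CPM ± 0.706 (SD, n = 3) at 135 min, and it fell by 2.51 on the log2 scale (SE 0.30, edgeR adjusted p = 0.000399). Both rose again from 135 to 405 min, Klf10 by 1.37 (SE 0.15, adjusted p = 0.00105) and Hes1 by 1.2 (SE 0.30, adjusted p = 0.0342). The Klf10 call in that comparison held in all 15 fits that left out 1 sample, whereas that of Hes1 was lost in 7 of them, with edgeR adjusted p-values of at most 0.162. Snai2 (-2.31, SE 0.40, adjusted p = 0.00815) and Snai1 (-1.16, SE 0.27, adjusted p = 0.0489), repressors of epithelial genes, fell at 135 min. At 405 min, when 13.4% of all tested genes fell, the same 4 genes were again below control at edgeR adjusted p-values from 0.00201 to 0.0203. Gata2, named after its values were seen, rose by 0.54 (SE 0.18, edgeR adjusted p = 0.0391). The Gata2 call was lost with the library set as a covariate (edgeR adjusted p = 0.125) and in 10 of the 15 fits that left out 1 sample, and that of Snai1 at 405 min without replicate 2 or 4 of that time. Of the 7 pathway calls at 135 min only those of Klf10 and Hes1 held in every fit that left out 1 sample and in the fit of only the compared groups, whereas all 7 held within library set 1, which leaves out the 1 control of set 2.

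**Figure D4:**
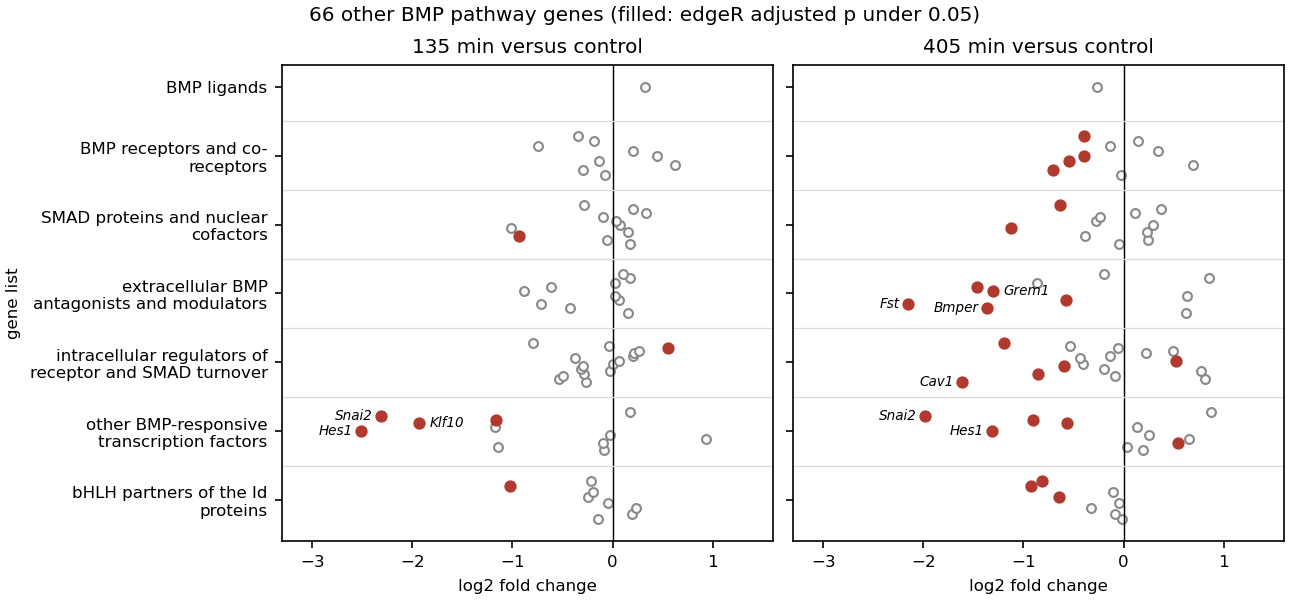
Log2 fold change against control of the 66 tested pathway genes at 135 and 405 min, by gene list (1 row of points per list, spread vertically for legibility). Filled points passed an edgeR adjusted p-value of 0.05 (7 genes at 135 min and 24 at 405 min), and names are given beside filled points beyond 1.2 in size, 1 point at 405 min excepted.

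Of 18 listed extracellular antagonists and modulators, which act on BMPs outside the cell, 10 were tested. None passed at 135 min, and at 405 min 5 fell and none rose, where 13.4% of all tested genes fell. The tested genes of the list that did not pass at 405 min are given outside the naming rule. Tsku had 0.85 (SE 0.59, edgeR adjusted p = 0.277), Fstl3 0.63 (SE 0.66, adjusted p = 0.471) and Bmp1, which encodes a protease, 0.62 (SE 0.28, adjusted p = 0.108). Tll1 had -0.86 (SE 0.61, edgeR adjusted p = 0.29) and Twsg1 -0.19 (SE 0.15, adjusted p = 0.321). Bmper, a secreted modulator, averaged 28.8 CPM ± 2.05 (SD, n = 5) with S1 and 11.2 CPM ± 1.63 (SD, n = 4) at 405 min, and it fell by 1.36 on the log2 scale (SE 0.16, edgeR adjusted p = 0.000139). Grem1, an antagonist that binds BMPs, had -1.30 (SE 0.37, adjusted p = 0.0245), Fstl1 -0.57 (SE 0.16, adjusted p = 0.0223) and Fst, which encodes the activin-binding follistatin and had only 4.14 CPM in control, -2.15 (SE 0.47, adjusted p = 0.00676). Bmper also passed at 405 min within each library set, with edgeR adjusted p-values of 0.0456 in set 1, with 1 sample of that time, and 0.00833 in set 2, with 1 control. Grem1 did not pass with the library set as a covariate or without replicate 1, 2 or 4 at 405 min, nor did Fstl1 without replicate 4.

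Of 17 listed intracellular regulators of receptors and SMADs 16 were tested. Smurf2, a ubiquitin ligase for SMADs and receptors, averaged 109 CPM ± 7.39 (SD, n = 5) in control and 160.1 CPM ± 2.0 (SD, n = 3) at 135 min. It rose by 0.55 on the log2 scale (SE 0.11, edgeR adjusted p = 0.0245) and fell by 0.61 on the log2 scale from 135 to 405 min (SE 0.12, adjusted p = 0.0115), and each of these calls was lost in 4 of the 15 fits that left out 1 sample. At 405 min 4 of the 16 fell, where 13.4% of all tested genes did so, and Nedd4l, another ubiquitin ligase and named after its values were seen, rose by 0.52 (SE 0.18, adjusted p = 0.0464). The first of the 4 was Cav1, the main protein of caveolae, with 547 CPM ± 80.4 (SD, n = 5) in control and 179 CPM ± 17.5 (SD, n = 4) at 405 min. Its fall by 1.61 on the log2 scale (SE 0.13, edgeR adjusted p = 7.09e-06) held in all 15 fits that left out 1 sample, and it also passed within each library set, where one arm held 1 sample. Xiap (-1.19, SE 0.28, adjusted p = 0.00987) and Lemd3 (-0.59, SE 0.17, adjusted p = 0.0276) fell too, as did Ctdspl (-0.85, SE 0.26, adjusted p = 0.0298), which was named after its values were seen. The calls of Nedd4l, Lemd3 and Ctdspl were lost with the library set as a covariate (edgeR adjusted p = 0.207, 0.093 and 0.0876) and in 12, 4 and 4 of the 15 fits that left out 1 sample. Fkbp1a, which encodes FKBP12 itself, had 190 CPM ± 133 (SD, n = 5) in control, 269 CPM ± 130 (SD, n = 3) at 45 min, 187 CPM ± 8.99 (SD, n = 3) at 135 min and 324 CPM ± 136 (SD, n = 4) at 405 min, and passed in no comparison (edgeR adjusted p of at least 0.174). Without control replicate 2, the only control of library set 2, its edgeR adjusted p-value at 405 min was 0.0059. In that fit 2517 of all tested genes passed as higher and 2463 as lower, against 1027 and 1382 in the main fit. The DD transgene derives from human FKBP12, so reads of the transgene may have been counted as Fkbp1a, and its values are uncertain.

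The partners of the ID proteins came last. Of 13 listed entries 8 were tested, among them Tcf3, which in these tables is another gene and no partner. At 135 min 1 of the 8 fell, and at 405 min 3 did, where 0.895% and 13.4% of all tested genes fell. Twist1, a helix-loop-helix factor of mesenchymal cells, fell at both times, by 1.02 (SE 0.21, edgeR adjusted p = 0.0245) and by 0.92 on the log2 scale (SE 0.19, adjusted p = 0.00492). Its relative Twist2 (-0.81, SE 0.15, adjusted p = 0.00295) and the E protein gene Tcf4 (-0.64, SE 0.11, adjusted p = 0.00152) fell at 405 min. The E protein gene Tcf12 had log2 fold changes of 0.04, 0.23 and -0.32 and did not pass (edgeR adjusted p of at least 0.172 against control). The gene that encodes E2A appears in the tables as Tcfe2a, on chromosome 10, and had -0.30, -0.20 and -0.11 (edgeR adjusted p of at least 0.616). The table entry Tcf3 lies on chromosome 6 and is not E2A, and it had -0.04, -0.05 and -0.05 (edgeR adjusted p of at least 0.865). Over all lists 16 of the 24 pathway calls at 405 min held with the library set as a covariate, and 13 held in every fit that left out 1 sample.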

How the data were processed

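Poly(A) mRNA-seq tables of 15 samples were used, and groups and replicate numbers were taken from the sample titles. Alignment to mm9 and quantification against RefSeq were done by the authors in DNAnexus, per their methods. The aligner, its version and the use of strand were not given in the sources used here. The deposited read counts were expected counts (estimates, some with fractions), whereas the plan had assumed whole counts, and they were rounded for the planned test. The authors also deposited RPKM per gene, used here only to compare levels between genes and as an added scale for the members. The other deposited columns were not used.

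The study's methods name edgeR, the removal of genes without reads and a false discovery rate of 0.05, and the other settings were chosen here. edgeR 4.0.16 (R 4.3.3) was run on the 10276 of 20207 genes that had 1 count or more in each sample, with TMM factors and 1 quasi-likelihood fit with a term for group over all 15 samples. P-values were adjusted by Benjamini-Hochberg over all tested genes, with a threshold of 0.05. SE is the log2 fold change over the square root of F. CPM use TMM-scaled library sizes, and log2 CPM used a prior count of 2. Sampling error alone limits genes of few counts, and intervals between replicates cover no more than these samples. The lowest chi-square statistic of the 22 replicate pairs was 12 per degree of freedom, so no library was counted as a repeat of another.

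Library set 2 is defined by a slope of log2 CPM on exonic GC content above 0.2 per 10 percentage points (NCBIM37 genome, GENCODE vM1, available for 95.9% of tested genes). The slope was taken on values centered on each gene's mean, a choice made after seeing that uncentered slopes give no set 2. Members, lists and the naming rule were chosen with earlier results of these data known. Named are all 9 members, the 20 pathway genes with the lowest adjusted p among those that passed in any of the 4 comparisons (26 passed), and Bmp4, Bmpr1a, Acvr1, Bmpr2, Smad1, Smad5, Smad4, Tcf3, Tcf4, Tcf12 and Fkbp1a. The 8 genes most like the members followed the measure given with them. Of the genes these rules name, 2 are not reported here. Whether replicate numbers pair the samples is not stated in the sources used here. Deviations from the group means of 19 same-numbered pairs had a mean correlation of -0.11 over genes, from -0.706 to 0.437. Library sets did not follow the replicate numbers from group to group, so these correlations cannot decide on pairing. The fit with the replicate number as a block is given as an alternative. Other alternatives were RLE size factors, library size only, DESeq2 1.42.0, other filters, only the compared groups, the library set as covariate or 1 set at a time, and leaving out each sample.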

Additional observations from a re-analysis of the deposited data

Results flagged for a closer look

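In 18 groups of 4 or 5 samples of the 9 members, the extreme sample was compared with its nearest neighbor, and 2 groups had a gap above the 95% critical value of Dixon's test, which chance exceeds in about 1 of 20 groups. Id2 in control replicate 3 was 162 CPM, with a gap of 0.761 of the group's range where the critical value for 5 samples is 0.71. This is the shallowest library, and on the authors' RPKM scale the same sample had the lowest Id2 level of the 5 controls, at 31.3 RPKM against 33.2 to 35.5 RPKM. Without that sample the log2 fold change of Id2 at 135 min was -2.41, and Id2 passed the threshold at 135 and 405 min. Atoh8 in control replicate 2 was 23.1 CPM, with a gap of 0.791 of the range. That sample was the only control of library set 2, and on the RPKM scale it was also the highest, at 5.29 RPKM against at most 1.51 RPKM. The part of the library set in the Atoh8 value was not tested.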

How the results depend on the processing

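No fold change of a called member changed sign under any alternative, and 889 alternative values of members moved by less than the spread between replicates and 29 by more. The counts of genes past the threshold depended more on the setting, and so did those over all tested genes. At 405 min 1382 of all tested genes passed as lower in the main fit and 463 in the fit of only the compared groups. Against 0 members and 0 pathway genes at 45 min, DESeq2 called 2 members and 2 pathway genes, and the fit with the library set as a covariate called 1 member. At 135 min (4 members, 7 pathway genes) the fit of only the compared groups gave 2 members and 2 pathway genes, no filter gave 3 pathway genes, the library set as a covariate gave 12 and library set 1 alone gave 11. Over all tested genes the covariate gave 314 higher and 501 lower at 135 min, and library set 1 alone 216 and 361. The main fit gave 58 and 92. At 405 min (8 members, 24 pathway genes) the compared groups gave 5 members and 13 pathway genes, library set 1 alone 1 and 4, and library set 2 alone 3 and 7, with fewer samples in each. From 135 to 405 min (1 member, 7 pathway genes) library size only, DESeq2, the compared groups and the library set as a covariate each gave 2 members, DESeq2 gave 14 pathway genes, no filter 4 and the compared groups 19, and library set 1 alone gave 0 of each. Over all tested genes the compared groups gave 1880 higher and 1324 lower from 135 to 405 min, against 230 and 290 in the main fit. Library set 2 had no 135-min sample. The cause of these differences was not tested.

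With the replicate number as a replicate block the counts were 2 members and 2 pathway genes at 135 min, 12 pathway genes at 405 min, and 0 members and 2 pathway genes from 135 to 405 min. Of the 19 same-numbered pairs 4 had a correlation over 0.1, and 2 samples correlated best with their own number.

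Leaving out 1 sample gave 2 to 4 members and 2 to 9 pathway genes at 135 min, 5 to 8 and 13 to 33 at 405 min, and 0 to 2 and 2 to 13 from 135 to 405 min. The 33 came without control replicate 2, where 2517 of all tested genes passed as higher and 2463 as lower, against 1027 and 1382 in the main fit. Members at 135 min numbered 2 without replicate 1 of that time, and at 405 min 5 without replicate 2 or 4 of that time. From 135 to 405 min there were 0 members without any 1 of the 135-min samples and 2 without control replicate 3. Pathway genes at 135 min numbered 4 without control replicate 1 or 5 and 2 without any 1 of the 135-min samples. At 405 min they numbered 15, 14 and 13 without replicates 1, 2 and 4 of that time. From 135 to 405 min they numbered 12 and 13 without control replicates 2 and 3, 2, 2 and 4 without the 135-min replicates, and 11 and 3 without replicates 3 and 4 at 405 min.

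Library size without TMM factors moved the median of all genes to 0.11 at 405 min and 0.18 from 135 to 405 min. On the authors' RPKM scale, an alternative chosen after seeing the data, that median was 0.31, 0.26 and 0.21 at the 3 times, and all 9 members had higher values than in the edgeR fit at the 3 times. Id2 had -0.67, -2.35 and -1.15, Atoh8 at 45 min had 0.73 in place of 0.20, and Bambi at 45 min had 0.12 and Atoh8 at 405 min 0.15, in place of negative values. Genes of low counts such as Smad6 and Fst limit what can be read at this depth.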
